A study of Mus musculus with 2 samples.

Results

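Monocytes and dendritic cells are white blood cells of the myeloid line that stand apart from the resident macrophages of a tissue. Classical monocytes leave the bone marrow through the chemokine receptor CCR2, carry Ly6C on their surface and enter wounds, where they can become macrophages or dendritic cells. Conventional dendritic cells depend on the growth factor receptor FLT3, load peptides onto MHC class II molecules and show them to T cells, whereas plasmacytoid dendritic cells are a source of type I interferon. Resident macrophages of connective tissue make the C1q subunits of complement, so that C1q RNA tells them from the cells described here.

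Monocyte and dendritic-like cells without C1q were examined in 2 single-cell RNA libraries from ICR mice. Hindlimb digits 2 and 4 of neonates were amputated through the middle phalanx at postnatal day 3, a bead soaked in FGF8 (500 ng/µl) or in 0.1% BSA was implanted at postnatal day 7, and the tissue was taken after a further 24 h (postnatal day 8). Each library pooled 20 digits from 5 mice of both sexes, and both groups shared the amputation, the bead and the removal of the epithelium. Because each treatment is 1 library, the treatment, the pool of animals and the library cannot be told apart, and differences carry no p-value for want of replicates. Every interval below covers counting error only.

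The cells were chosen by their own RNA. A barcode was kept with 201 to 7499 detected genes and under 15% mitochondrial UMIs (unique molecular identifiers, 1 per captured transcript). It was selected with a UMI of at least 3 of the 8 genes *Ccr2*, *Plac8*, *Ly6c2*, *Ms4a4c*, *Flt3*, *Cd209a*, *H2-Aa* and *H2-Eb1*, of at most 1 of the 5 genes *C1qa*, *C1qb*, *C1qc*, *Pf4* and *Mrc1*, and with no UMI of *Pdgfra*, a receptor of fibroblasts. This left 303 of 9967 kept barcodes, 169 of them from FGF8 beads and 134 from BSA beads. They held 1708615 and 1557678 UMIs, with medians of 8964 and 9605 per cell. Of the 10952 barcodes in the files, 6 occurred in both libraries, and none of these was selected.

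Near the limits of the rule, 45 FGF8 and 43 BSA cells entered with exactly 3 of the 8 genes, and 99 and 55 barcodes with 2 genes stayed out. The cells just inside had *Ptprc* (CD45, carried by all white blood cells) in 86.7% of the FGF8 barcodes, against 65.7% of those just outside. A further 46 and 20 barcodes with 3 or more of the 8 genes stayed out for 2 of the macrophage genes, and 21 and 7 for *Pdgfra* alone.

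The selected cells made up 2.52% of the FGF8 library (169 of 6715, exact 95% binomial interval 2.16 to 2.92%) and 4.12% of the BSA library (134 of 3252, 3.46 to 4.86%). The FGF8 share was the lower one, and the intervals did not overlap. As a share of the selected cells and the C1q macrophages together, the values were 35.8% (31.5 to 40.3%) and 41.4% (35.9 to 46.9%), whose intervals overlapped. Among barcodes with a UMI of *Ptprc*, the shares were 11.0% (9.45 to 12.8%) and 18.7% (15.8 to 22.0%). In tissue pools of this kind, fewer cells of a type in the digit and fewer released by dissociation cannot be told apart.

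The 2 pools also differed in sex. Cells were called female by *Xist* and male by genes of the Y chromosome (*Uty*, *Kdm5d*, *Eif2s3y*, *Ddx3y*). Of the selected cells with a call, 28.8% were female with FGF8 and 82.0% with BSA. Within female-called cells the selected cells were 3.30% (2.35 to 4.50%) and 4.22% (3.37 to 5.21%), and within male-called cells 2.67% (2.16 to 3.26%) and 3.55% (2.12 to 5.55%). The FGF8 share was the lower one in each sex, with intervals that overlapped. Values by sex call are therefore given for the lists and genes where they bear on a result below.

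The rule genes are listed as a description of what was selected. *Plac8*, a small cysteine-rich protein of monocytes, reached 1886 CPM (UMIs of the gene per 1000000 UMIs of the cells) in FGF8 cells and 2056 CPM in BSA cells. *Ccr2* reached 488 and 463 CPM, in 79.9% and 73.9% of cells. *H2-Aa*, the alpha chain of an MHC class II molecule, reached 4280 and 4497 CPM, in 40.2% and 47.0% of cells, and *H2-Eb1* 1281 and 1129 CPM. *H2-Aa* was found in 3.23% and 2.67% of fibroblasts, whose median depths were 19129 and 21484 UMIs. The rule itself raised the share in the selected cells, so nothing is read from that contrast. *Flt3* was at 69.1 and 73.2 CPM, and *Ms4a4c* at 716 and 971 CPM.

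Of the 8 genes, 6 had intervals of the log2 ratio, FGF8 over BSA, that left out 0, with *H2-Eb1* higher in FGF8 cells and *Plac8*, *Ly6c2*, *Ms4a4c*, *Cd209a* and *H2-Aa* lower. *Ly6c2*, the Ly6C antigen of classical monocytes, was at 560 CPM (exact Poisson interval 525 to 596) in FGF8 cells and 978 CPM (930 to 1029) in BSA cells. *Cd209a*, a lectin of dendritic cells, was at 50.3 and 141 CPM, carried by 15 cells in each library. *Ly6c2* and *H2-Aa* were found together in 10.1% of FGF8 cells (5.97 to 15.6%) and in 22.4% of BSA cells (15.6 to 30.4%). Since these genes took part in the selection, their levels describe the cells and test nothing.

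The selected cells were mixed by these genes. Both class II genes were found in 34.3% of FGF8 cells and 33.6% of BSA cells, and neither in 59.2% and 50.7%. At least 3 of the monocyte-side genes *Ccr2*, *Plac8*, *Ly6c2* and *Ms4a4c* were found in 75.1% and 77.6%. *Mrc1*, the mannose receptor, was the 1 macrophage gene that the rule let through in 32.0% and 23.9% of cells, while any C1q gene was found in 7.10% and 8.96%.

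To see what the rule had gathered, the 303 cells were clustered on 1500 variable genes without X- and Y-linked genes, which gave 10 clusters. A cluster was named only from marker lists, and its leading genes, those with the highest fold over the other selected cells, are a description. Dendritic-like cells formed 3 clusters. The largest, with 51 cells, was cDC1-like, named for the conventional dendritic cells that cross-present antigen. It was led by *Gpr141b*, *Gcsam*, *Hepacam2* and *Clec9a*, a receptor for dead cells. *Irf8*, a transcription factor that cDC1 need, was at 1399 CPM in it, *Naaa* at 1312 CPM and the chemokine receptor *Xcr1* at 91.3 CPM. These cells were the deepest, with a median of 16378 UMIs, and the proliferation gene *Mki67* was found in 33.3% of them.

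The cDC2-like cluster held 42 cells and was led by *Cd209a*, *Cd209d* and *Clec10a*, all lectins that bind sugars on microbes. *Flt3* was found in 61.9% of its cells and in 82.4% of the cDC1-like cells. *Cd74*, the invariant chain that guards the class II groove, was at 18429 CPM in the cDC2-like and 14451 CPM in the cDC1-like cluster, but at 147 CPM in the monocyte-like cluster led by *Mgst1*. A plasmacytoid dendritic cell-like cluster of 9 cells was led by *Siglech*, found in 100% of its cells, and held *Ccr9* at 876 CPM.

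Classical monocyte-like cells formed 3 clusters. One of 27 cells was led by *Mgst1*, *Hp*, *Arhgef37* and *S100a8*. The haptoglobin gene *Hp* was at 1116 CPM in it, the matrix proteoglycan *Vcan* at 1064 CPM and lysozyme *Lyz2* at 17958 CPM, while *H2-Aa* was at 4.75 CPM. A second, of 44 cells, was led by *Calhm6*, *Aoah*, *Ly6a*, *Ly6c2* and *Gbp2*, and carried *Ly6c2* at 2339 CPM and *Plac8* at 5223 CPM. The third, also of 44 cells, was led by *Vegfa* and *Hilpda*, both known as hypoxia-induced genes, and by *Il1rn*, the antagonist of the interleukin 1 receptor, at 566 CPM. Its *Ly6c2* level, 457 CPM, was lower than that of the other monocyte-like clusters. The name of this cluster rests on 1 classical monocyte marker among its 10 leading genes, *Clec4e*, and 8 of 10 markers were in at least 10% of its cells. The *Calhm6* cluster likewise had 1 such leading marker, *Ly6c2*, so both names are weakly based.

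No name was given to 2 clusters, which had no listed marker among their 10 leading genes. Of the 10 classical monocyte markers, 9 and 10 were still in at least 10% of their cells. One of 37 cells was led by *Lyz2* (14028 CPM), *Mcemp1*, *Ccl6* and *Nfil3*, with *Ccr2* in 100% of its cells. The other, of 26 cells, was led by *Apol9b*, *Lipg*, *Cxcl11* and *Cxcl10*, and stood out by genes that interferon induces. *Cxcl10*, a chemokine for T cells, was at 2052 CPM in it, *Rsad2* (viperin, an antiviral enzyme) at 1830 CPM and *Ifit1* at 974 CPM. It also held *Ly6c2* at 2586 CPM and *Ms4a4c* at 3281 CPM.

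In 2 small clusters the data went against the label. A neutrophil-like cluster of 13 cells was led by *Cstdc4*, *Acta2* and *Cxcr2*, with *S100a9* among its 10 leading genes and *Ly6g*, a defining neutrophil gene, at 0 UMIs. A T, NK or innate lymphoid cell-like cluster of 10 cells was led by *Nkg7* (1086 CPM) and *Cd3g* (789 CPM) and had *Lyz2* at 0 CPM. *Ccr2*, *Plac8* and *Ly6c2* were found in 69.2%, 100% and 92.3% of the neutrophil-like cells and in 100%, 60.0% and 60.0% of the lymphoid-like cells. Without both clusters 158 FGF8 and 122 BSA cells remained, and the shares of the libraries were 2.35% and 3.75%.

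**Figure D1:**
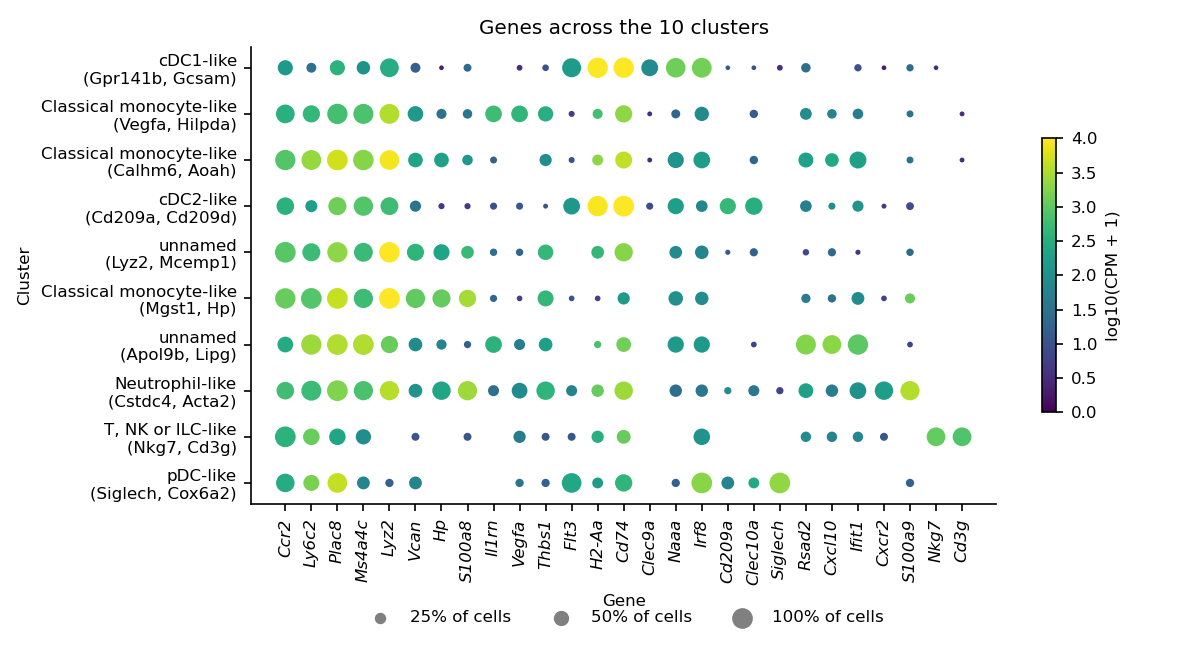
Dot plot of selected genes (horizontal axis) in the 10 clusters (vertical axis, with 2 leading genes each), both libraries together. Dot area gives the percent of cells with a UMI and colour the log10 of CPM plus 1. *Siglech* is high in the pDC-like cluster alone of those drawn, and *Rsad2*, *Cxcl10* and *Ifit1* are highest in the cluster led by *Apol9b*.

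Of the 10 clusters, the interferon-led one had the widest gap in share between the libraries. It held 8 of 169 FGF8 cells (4.73%, exact interval 2.07 to 9.11%) and 18 of 134 BSA cells (13.4%, 8.16 to 20.4%), and the 2 intervals overlapped slightly. By sex call the cluster held 1 of 38 FGF8 against 11 of 82 BSA female-called cells, and 4 of 94 against 2 of 18 male-called cells. With 1 female FGF8 cell and 2 male BSA cells, these counts are too few to give a direction within a sex. In this cluster *Ifit1* and *Rsad2* belong to the genes that define it, so their levels there are no result.

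The other clusters had intervals that overlapped more widely. The cDC1-like cluster held 18.9% (13.3 to 25.7%) of FGF8 cells and 14.2% (8.76 to 21.3%) of BSA cells, and the *Vegfa* and *Hilpda* cluster 17.8% (12.3 to 24.4%) and 10.4% (5.83 to 16.9%). The *Mgst1* and *Hp* cluster held 11.2% of FGF8 cells and 5.97% (2.61 to 11.4%) of BSA cells. On the BSA side lay the cDC2-like cluster, with 11.8% (7.38 to 17.7%) and 16.4% (10.6 to 23.8%). The *Lyz2* cluster held 11.2% and 13.4%, the *Calhm6* cluster 13.6% and 15.7%, and the plasmacytoid-like cluster 4.14% and 1.49%. In each of these clusters the 2 intervals overlapped. The shares also moved with the clustering resolution, each cluster being matched to the one with the largest overlap. At a resolution of 1.5 the order turned for the *Vegfa* match (10.7% FGF8, 14.2% BSA) and the *Calhm6* match (7.10% and 5.22%). At 0.5 the *Vegfa* match held 17.2% and 9.70%. The interferon-led match held 7.69% and 15.7% at 1.5, and 4.73% and 13.4% at 0.5.

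**Figure D2:**
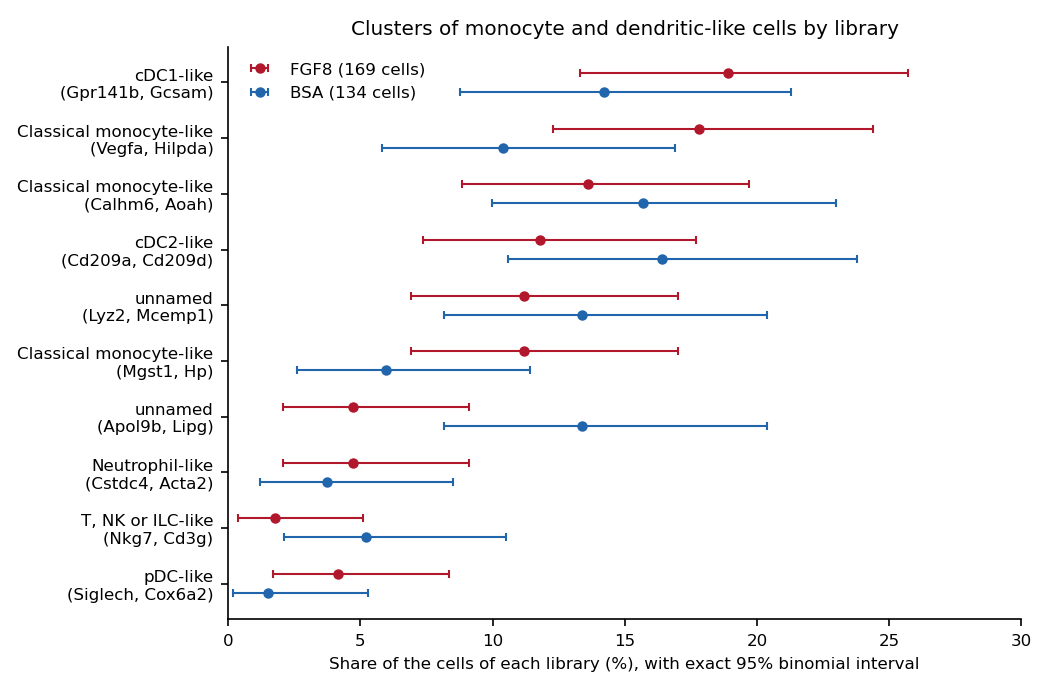
Share of the selected cells of each library (horizontal axis, percent) that fell in each cluster, with exact 95% binomial intervals. FGF8 points rest on 169 cells and BSA points on 134. The cluster led by *Apol9b* has the widest gap, with 4.73% against 13.4%.

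Against the C1q macrophages of the same libraries (303 FGF8 and 190 BSA cells with at least 3 of the 5 macrophage genes), the selected cells carried the antigen presentation genes at far higher levels. The genes below are those with the highest or lowest mean log2 ratio over both libraries, given without a test because the groups were cut on such genes. Besides the rule genes, *H2-Ab1*, the partner chain of *H2-Aa*, was at 3867 and 3403 CPM in FGF8 and BSA selected cells and at 110 and 152 CPM in macrophages. *Cd74* was at 7809 and 8101 CPM against 339 and 499 CPM, and *H2-DMb1*, which edits the class II peptide load, at 430 and 429 CPM against 31.3 and 44.1 CPM. The log2 ratio of *Cd74*, selected cells over macrophages, was 4.53 with FGF8 and 4.02 with BSA.

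Genes outside antigen presentation were shared by both libraries too. *Hp* had log2 ratios, selected cells over macrophages, of 5.83 and 3.89, *Plbd1* of 4.66 and 3.25, *Rnase6* of 4.93 and 3.81, and *Cytip*, a regulator of leukocyte adhesion, of 3.75 and 3.90. *Itgb7*, an integrin that guides leukocytes to mucosa, was at 92.5 and 119 CPM against 7.40 and 9.53 CPM. *Htr7*, a serotonin receptor, was at 110 and 75.1 CPM against 6.68 and 3.53 CPM.

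On the macrophage side, *Cbr2* was at 1.17 and 3.85 CPM in selected cells and 137 and 199 CPM in macrophages. *Folr2*, a folate receptor of resident macrophages, was at 2.34 and 11.6 CPM against 222 and 215 CPM, and *Igf1* at 5.85 and 2.57 CPM against 185 and 269 CPM. *Stab1*, a scavenger receptor, was at 11.7 and 14.1 CPM against 244 and 260 CPM. *Gas6*, a ligand that bridges dead cells to phagocytes, had log2 ratios of -5.18 and -4.81.

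Between the treatments, 6898 genes had at least 50 UMIs over the selected cells. Of these, 126 had a log2 ratio of FGF8 over BSA above 1 (1.83%) and 100 below -1 (1.45%), and the median over all tested genes was 0.005. With at least 50 UMIs, a gene beyond 2-fold always has its exact 95% counting interval on 1 side of 0, so that interval adds no check here. The 5th and 95th percentiles of the ratio were -0.66 and 0.65. Of the genes above 1, 92 were also above 0 in female-called and male-called cells each, and of those below -1, 73 were below 0 in both. The sex-called cells are parts of the selected cells, so some of this agreement is built in. With the cell richest in each gene left out of both libraries, 108 of the 126 and 87 of the 100 stayed beyond their limit.

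Interferon response genes were lower in FGF8 cells as a list. Type I and II interferons act through STAT proteins on genes whose products block viruses, mark cells for lysis or recruit T cells. Of 29 tested genes of the list, 26 had a ratio below 0 (49.4% of all tested genes did), 17 had an interval below 0 (11.6% of all tested genes), and 2 lay below -1 (1.45%). In both sexes 17 of the 29 were below 0, a count for which no share over all genes is given and which is only a description. The median log2 ratio was -0.30, beside 0.005 over all genes.

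*Ifit1*, which binds foreign RNA, was at 81.4 CPM (139 UMIs) in FGF8 cells and 175 CPM (272 UMIs) in BSA cells, a log2 ratio of -1.10 (-1.41 to -0.80). It was found in 26.0% of FGF8 cells (19.6 to 33.3%) and 38.8% of BSA cells (30.5 to 47.6%), with 18.2% and 21.6% in macrophages and 7.42% and 12.8% in fibroblasts. *Oas1a*, an activator of RNase L, was at 22.8 and 47.5 CPM (-1.06). *Rsad2* was at 133 and 229 CPM (-0.78), *Usp18*, which removes ISG15 from proteins, at 94.8 and 163 CPM (-0.78), and *Irf7*, a transcription factor that amplifies interferon output, at 556 and 856 CPM (-0.62). The most abundant members were closer: *Isg15* was at 1123 and 1385 CPM (-0.30) and *Ly6e* at 990 and 1156 CPM (-0.22).

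The interferon values moved with 2 other features. The list median was -0.45 among female-called and -0.06 among male-called cells, where the BSA side rests on 18 cells. *Irf7* had ratios of -0.99 and 0.46, and *Ifit1* of -0.61 and -2.21. Without the 26 cells of the interferon-led cluster the median was -0.12. Per cell, the list took 0 to 64591 CPM in FGF8 cells (median 4762) and 163 to 60866 CPM in BSA cells (median 6177), so that the libraries overlapped across nearly the whole range.

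Inside the interferon-led cluster, the summed CPM of the interferon response list was 34854 in FGF8 cells and 31892 in BSA cells. In the *Calhm6* cluster it was 13349 and 15506, and in the cDC1-like cluster 3762 and 2739. Over all selected cells it was 6797 and 8658 CPM, so that the order of the libraries inside a cluster was not always that of the whole. The list was also lower in the macrophages, where its median was -0.70.

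The promoters of this list are shown because most of its genes had a ratio below 0. The interferon-stimulated response element is the site that STAT and IRF proteins bind, and it was searched as GAAANNGAAA on both strands, overlapping matches included, from 250 bases before to 50 after each gene start in the RefSeq promoter table of GRCm38.p6. Of the 30 listed genes 22 had an entry, and 17 of these (77.3%) held a match, against 3.99% of all 27025 genes in the table. Of the 19 genes of the AP-1 and immediate early list with an entry, 0 held one. A match is a description of these letters and not a shown binding site. The stretches below belong to the 4 genes with a match and the lowest log2 ratios, with capitals for the match, on whichever strand it lay:

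*Ifit1*, plus strand, chr19:34640745-34640853: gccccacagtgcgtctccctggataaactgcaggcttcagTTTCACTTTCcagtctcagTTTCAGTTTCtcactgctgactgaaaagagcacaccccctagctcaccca
*Oas1a*, minus strand, chr5:120907496-120907585: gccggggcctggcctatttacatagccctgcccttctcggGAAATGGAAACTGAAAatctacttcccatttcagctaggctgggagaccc
*Rsad2*, minus strand, chr12:26456523-26456612: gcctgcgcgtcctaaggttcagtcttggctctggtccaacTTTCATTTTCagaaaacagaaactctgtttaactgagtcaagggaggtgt
*Stat2*, plus strand, chr10:128270248-128270325: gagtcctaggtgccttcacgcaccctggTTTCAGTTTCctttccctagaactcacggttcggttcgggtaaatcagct

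*Ifit1* and *Oas1a* each held 2 matches, which in *Oas1a* overlapped by 4 bases and ended close to the gene start. The matches began 104 bases before the start in *Ifit1*, 20 in *Oas1a*, 120 in *Rsad2* and 222 in *Stat2*.

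Genes of the AP-1 and immediate early list were lower in FGF8 cells as well. FOS and JUN proteins form the AP-1 transcription factor, and such genes switch on within minutes of a stimulus, dissociation of the tissue included. Of 19 tested genes, 16 had an interval below 0 and 1 above 0, beside 11.6% and 10.3% of all tested genes. Below -1 lay 2 of the 19, beside 1.45% of all. The median log2 ratio was -0.54. Split by sex call, the median was -0.43 (female) and -0.25 (male). Below 0 in both were 10 of 19 genes, again without a share over all genes.

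*Dusp1*, a phosphatase that turns off MAP kinases, was at 146 CPM in FGF8 and 320 CPM in BSA cells (-1.13, -1.36 to -0.91). *Atf3* was at 212 and 437 CPM (-1.04, -1.23 to -0.85) and was found in 50.3% and 67.2% of cells. *Zfp36*, which destabilizes cytokine mRNAs, was at 229 and 436 CPM (-0.93), *Junb* at 794 and 1238 CPM (-0.64) and *Fos* at 561 and 850 CPM (-0.60). In fibroblasts the same genes lay near or above 0: *Dusp1* had a ratio of 0.29, *Atf3* of 0.32 and *Junb* of 0.46. Macrophages had -0.46, -0.45 and 0.03. These differences between cell types were not tested.

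The AP-1 and immediate early list differed most in the *Lyz2* cluster, at a summed 6889 CPM in FGF8 and 13692 CPM in BSA cells, and in the *Calhm6* cluster, at 2981 and 6058 CPM. It was at 4999 and 4877 CPM in the cDC2-like cluster, and the FGF8 value was the higher one also in the neutrophil-like and the plasmacytoid-like clusters. Without the neutrophil-like and lymphoid-like clusters the list median was -0.64, and that of the interferon response list -0.40. The part of dissociation in these values was not tested.

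Inflammatory cytokines and mediators had a median log2 ratio of -0.47 over 12 tested genes, of which 6 had an interval below 0, beside 11.6% of all tested genes, and 0 above. Of the 12 genes 3 lay below -1, beside 1.45% of all. *Osm*, oncostatin M, had 24 UMIs in FGF8 and 95 UMIs in BSA cells (-2.12, -2.83 to -1.46, with -0.85 in the female and -3.46 in the male call), in 10.7% of FGF8 and 20.9% of BSA cells. *Il1b* was at 454 and 628 CPM (-0.47) and *Nfkbia*, the inhibitor that NF-kB induces, at 355 and 616 CPM (-0.80). *Tnfaip3*, which ends NF-kB signalling, was at 43.9 and 100 CPM (-1.19), and *Il1rn* at 65.6 and 145 CPM (-1.15). For *Il1rn* the sexes disagreed, at -2.43 (female) and 0.26 (male). *Cebpb*, a transcription factor of inflammatory myeloid cells, was at 663 and 1177 CPM (-0.83), in 71.6% and 70.9% of cells. *Nr4a1*, which nonclassical monocytes require, was at 42.1 and 86.7 CPM (-1.04).

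Chemokine ligands went both ways. Of 13 tested genes 3 lay above 1 and 1 below -1, beside 1.83% and 1.45% of all tested genes. *Ccl2* and *Ccl7*, both ligands of CCR2, were at 255 and 137 CPM (0.90) and at 79.0 and 28.2 CPM (1.48), with ratios above 0 in each sex. *Cxcl9* was at 53.8 and 25.7 CPM (1.07), with 46.7% of its FGF8 UMIs in 1 cell. *Ccl8* was at 149 and 23.1 CPM (2.69), with 69.4% of its FGF8 UMIs and 77.8% of its BSA UMIs in 1 cell each, so its ratio describes few cells. *Ccl5* was at 406 and 917 CPM (-1.17), with 31.6% and 40.5% of its UMIs in 1 cell. It was found in 8.88% of FGF8 and 18.7% of BSA cells, and in 65.4% of the interferon-led cluster.

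Among the chemokine receptors and egress genes, *Cxcr4*, which holds leukocytes in the marrow and in wounds, was at 46.8 and 116 CPM (-1.30, -1.70 to -0.92), in 23.1% and 35.8% of cells, with -0.39 (female) and -1.77 (male) by sex call. *Ccr7*, which guides mature dendritic cells to lymph nodes, was at 40.4 and 8.99 CPM (2.17), but was found in only 6 FGF8 and 5 BSA cells. The other 13 tested genes of this list lay within 2-fold. Of all tested genes, 1.83% lay above 1 and 1.45% below -1.

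Dendritic cell genes were examined by subset. Of 12 tested cDC1 genes, 7 had an interval above 0, beside 10.3% of all tested genes, and 1 below. The median was 0.63, at 0.72 for the female and 0.12 for the male call. Above 0 in both were 6 of 12 genes, without a share over all genes. Of the 12 genes, *Gcsam* alone lay above 1 (1.83% of all tested genes did), at 60.3 and 23.1 CPM (1.38). *Irf8* was at 527 CPM in FGF8 and 356 CPM in BSA cells, *Naaa* at 479 and 288 CPM (0.74), *Wdfy4*, needed for cross-presentation, at 273 and 168 CPM (0.70), and *Clec9a* at 26.3 and 15.4 CPM (0.77). In male-called cells *Naaa* and *Wdfy4* had ratios of -0.24 and -0.16. The cDC1-like cluster held 18.9% and 14.2% of the cells, and its part in these ratios was not tested.

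Of 14 tested cDC2 genes, 4 lay below -1 and 1 above 1, beside 1.45% and 1.83% of all tested genes, with a median of -0.17. The list went both ways, with 6 intervals below 0 and 4 above, beside 11.6% and 10.3% of all tested genes. *Mgl2*, a galactose-binding lectin, was at 39.2 and 173 CPM (-2.14), *Clec10a* at 43.3 and 104 CPM (-1.26), *Cd7* at 41 and 97 UMIs (-1.38) and *Tnfsf9*, the ligand of 4-1BB, at 22.2 and 96.3 CPM (-2.11). The exception was *Kmo*, an enzyme of tryptophan breakdown, at 29.3 and 10.3 CPM (1.51). Single cells weighed heavily here: 1 BSA cell held 46.5% of the library's *Mgl2* UMIs and 1 held 40.7% of its *Tnfsf9* UMIs. Without the richest cell of each library their ratios were -1.74 and -1.59. By sex call *Mgl2* was at -4.67 (female) and -0.28 (male). Of 9 tested genes of mature migratory dendritic cells, 2 lay above 1 and 1 below -1, from -7.19 to 2.17. Their intervals lay above 0 for 5 and below for 2, with a median of 0.43. That median was -0.55 for the female and 0.23 for the male call. The 6 tested plasmacytoid dendritic cell genes had a median of 0.03, with 2 intervals above 0 and 2 below.

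The genes of MHC class II presentation had a median of -0.11 over 15 tested genes, none beyond 2-fold. Of all tested genes 1.83% lay above 1 and 1.45% below -1, so a count of none says little in lists this short. *H2-Ab1* was at 3867 and 3403 CPM (0.18), *Cd74* at 7809 and 8101 CPM (-0.05) and the protease *Ctss* at 1425 and 1669 CPM (-0.23). Classical monocyte genes had a median of -0.12 over 22 tested genes, and again none lay beyond 2-fold, with the same limit. *Lyz2* was at 4193 and 4967 CPM (-0.24) and *Ifi27l2a*, itself interferon-induced, at 1081 and 2048 CPM (-0.92). *Vcan* was at 214 and 136 CPM (0.65).

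UMIs of the receptors that FGF8 could act on were few. *Fgfr1* was at 25.2 CPM (43 UMIs) in FGF8 cells and 13.5 CPM (21 UMIs) in BSA cells, a ratio of 0.90 (0.12 to 1.73). It was found in 18.9% and 9.70% of cells, with 19.5% and 11.6% in macrophages and 87.6% and 88.7% in fibroblasts. Thinned to 2000 UMIs per cell, the shares were 2.41% and 2.38%, so a difference in *Fgfr1* was not detectable at this depth. *Fgfr2* was at 32.8 and 30.8 CPM, against 85.5 and 74.1 CPM in macrophages. *Fgfr3* and *Fgfr4* had 0 UMIs in 169 FGF8 cells and 1 UMI each in BSA cells. By the exact interval, 0 of 169 allows up to 2.16% of cells with a UMI at this depth, which sets no limit on cells that carry the receptor.

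Genes that FGF signalling is known to induce showed no shared direction in these cells. Of 8 tested genes 4 lay above 0 and 4 below (49.4% of all tested genes lay below), with a median of 0.08. *Dusp6*, the feedback phosphatase of ERK, was at 49.7 and 42.4 CPM (0.23, -0.25 to 0.72), where fibroblasts had a ratio of 0.96. *Spred1* was at 82.5 and 66.1 CPM (0.32), *Ccnd1* at 155 and 114 CPM (0.45) and *Dusp5* at 55.0 and 84.7 CPM (-0.62). *Egr1* lay above 1 at 29.3 and 13.5 CPM (1.12), at -1.08 for the female and 3.43 for the male call.

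Over 26 tested S phase genes of the cell cycle the median was -0.19. Their intervals lay below 0 for 4 and above for 0, beside 11.6% and 10.3% of all tested genes. Over 26 G2 and mitosis genes the median was -0.20, with 7 intervals below 0, 2 above and 2 genes below -1 (1.45% of all tested genes). The G2 and mitosis median was 0.06 for the female and -1.07 for the male call. Thinned to 2000 UMIs, at least 5 S phase genes were found in 7.23% of FGF8 cells (3.79 to 12.3%) and 8.73% of BSA cells (4.44 to 15.1%). For G2 and mitosis genes the FGF8 share was the higher one, at 10.8% (6.55 to 16.6%) and 8.73% (4.44 to 15.1%), with overlapping intervals. With all UMIs the shares were 52.7% and 53.7% for S phase genes, and 83.4% and 71.6% for G2 and mitosis genes. In the cDC1-like cells the G2 and mitosis list summed to 2951 CPM in FGF8 and 4905 CPM in BSA cells, beside 1528 and 1308 CPM in the *Vegfa* cluster.

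**Figure D3:**
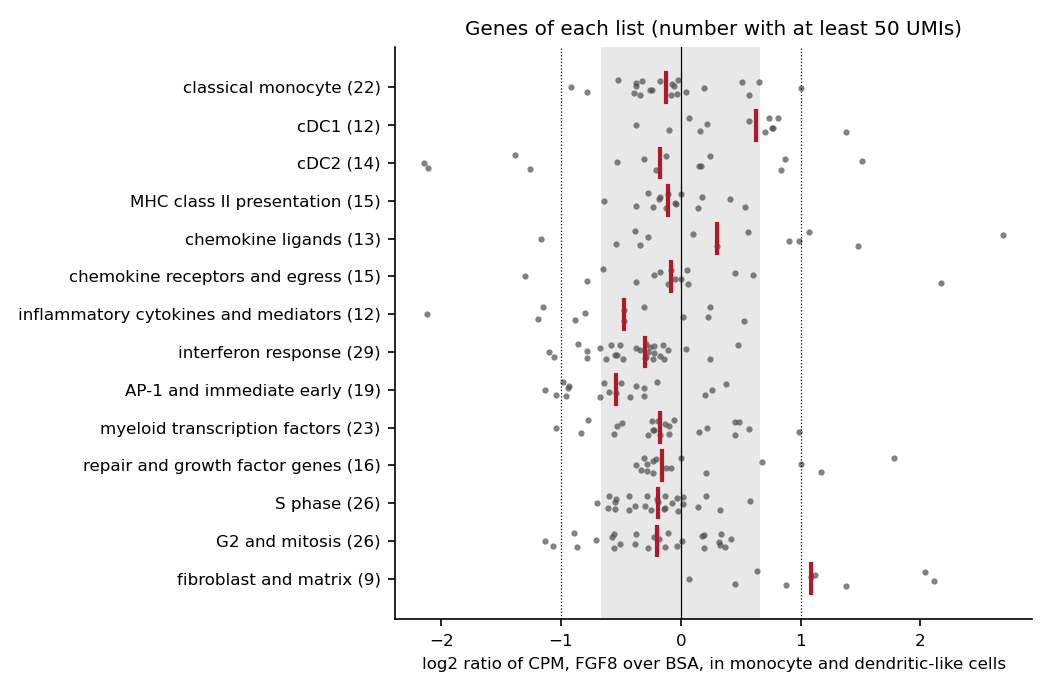
Log2 ratio of CPM, FGF8 over BSA, in the selected cells (horizontal axis) for each tested gene of 14 lists (vertical axis, number of genes in parentheses), with the list median in red. The grey band spans the 5th to 95th percentile of all 6898 tested genes, -0.66 to 0.65, and dotted lines mark 2-fold. The AP-1 and immediate early median lies at -0.54 and the fibroblast and matrix median at 1.09.

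Genes of fibroblasts were higher in FGF8 cells, although a UMI of *Pdgfra* barred a barcode. All 9 tested fibroblast and matrix genes lay above 0, 5 of them above 1 (1.83% of all tested genes did), with a median of 1.09. Macrophages had a similar list median, 1.16. The whole list summed to 1651 CPM in FGF8 and 886 CPM in BSA cells, and 163 of 169 and 103 of 134 cells held at least 3 of its 14 genes. *Dcn*, a small matrix proteoglycan, was at 66.7 and 15.4 CPM (2.11, 1.47 to 2.81), in 45.6% and 12.7% of cells. Macrophages had *Dcn* at 113 and 23.6 CPM (2.26), while in fibroblasts themselves it was lower after FGF8, at 1712 and 2688 CPM. *Col1a1* was found in 82.8% and 76.9% of selected cells and in 91.1% and 85.8% of macrophages. The part of free RNA and of shared droplets in these values was not tested.

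*Spp1*, osteopontin, was at 374 CPM in FGF8 and 109 CPM in BSA cells (1.78, 1.53 to 2.03), in 71.0% (63.5 to 77.7%) and 23.1% (16.3 to 31.2%) of cells. The shares were similar in macrophages, 74.9% and 26.3%, and in fibroblasts, 73.5% and 14.9%, whose summed levels reached 2536 and 577 CPM. By sex call the *Spp1* ratio was 2.94 (female) and 0.52 (male). The part of free RNA in the *Spp1* values was not tested. *Timp1*, an inhibitor of metalloproteinases, was found in 51.5% and 17.9% of selected cells, at 111 and 49.4 CPM, and in 56.4% and 14.7% of macrophages. *Fn1*, fibronectin, was at 410 and 205 CPM (1.00), in 64.5% and 42.5% of cells.

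Of the 10 genes with the highest ratios among 2197 that were found in at least 10% of cells and had 1 direction in both sexes, 3 had most of their FGF8 UMIs in 1 cell. *Cma1*, a mast cell chymase on chromosome 14, was at 754 and 8.35 CPM, with 79.2% of its FGF8 UMIs in 1 cell and a log2 ratio of 4.62 without the richest cell of each library. *Hbb-bs* and *Hba-a1*, globins of red cells, were at 3526 and 117 CPM and at 2390 and 88.6 CPM, with 80.8% and 75.1% in 1 cell. Without the richest cells their log2 ratios were 2.70 and 2.92. By sex call *Hbb-bs* was at 0.42 (female) and 6.32 (male), *Hba-a1* at 0.58 and 6.82, and *Cma1* at 1.19 and 7.20. The female *Cma1* value rests on 8 FGF8 and 10 BSA UMIs. Leaving out cells with over 1% globin UMIs kept 166 of the 169 FGF8 cells, so the globin ratios describe few cells. *Cstdc5*, at 108 and 19.3 CPM (2.48), was a leading gene of the neutrophil-like cluster.

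*Pde4d*, a phosphodiesterase that breaks down cyclic AMP, was found in most FGF8 cells. Its gene lies at chromosome 13, from 108586482 to 110092497 (GENCODE vM39, GRCm39). *Pde4d* was at 598 CPM in FGF8 cells and 133 CPM in BSA cells, a ratio of 2.17 (1.95 to 2.39), and was found in 69.2% (61.7 to 76.1%) and 24.6% (17.6 to 32.8%) of cells. Thinned to 2000 UMIs the shares were 42.8% and 12.7%. By sex call the ratio was 3.12 (female) and 2.97 (male). Macrophages, at 588 and 103 CPM, and fibroblasts, at 825 and 380 CPM, had ratios of 2.51 and 1.12, so that all 3 cell groups had the higher level in the FGF8 library. Its shares in FGF8 macrophages (75.9%) and fibroblasts (91.5%) were high as well, and the part of free RNA was not tested.

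The other high genes were *S100a3* at 48.6 and 12.8 CPM (1.92), *Plcb1*, a phospholipase, at 197 and 68.7 CPM (1.52), and the collagen *Col12a1* at 53.3 and 18.6 CPM (1.52). *S100a3* had a ratio of 2.63 in macrophages and 1.28 in fibroblasts, *Col12a1* 1.90 and -0.33, and *Plcb1* 0.74 and -0.26.

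Among the 10 lowest, besides *Mgl2*, *Osm*, *Tnfsf9* and *Cxcr4*, *Slc2a3*, a glucose transporter, was at 17.6 and 47.5 CPM (-1.44), and *Cd209d* at 107 and 280 CPM (-1.39), found in 13 and 14 cells. By sex call *Cd209d* was at -5.62 (female) and -0.74 (male). *Mxd1*, a repressor that opposes MYC, was at 94.2 and 223 CPM (-1.24, -1.52 to -0.97) in 35.5% and 52.2% of cells. *Ninj1*, which ruptures the membrane of dying cells, was at 46.2 and 112 CPM (-1.27), with -1.19 (female) and -0.17 (male) by sex call. *Tmcc3* (-1.34) and *Klra17* (-1.23) completed the group. None of these had a macrophage ratio below -1 except *Osm*, at -1.06.

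**Figure D4:**
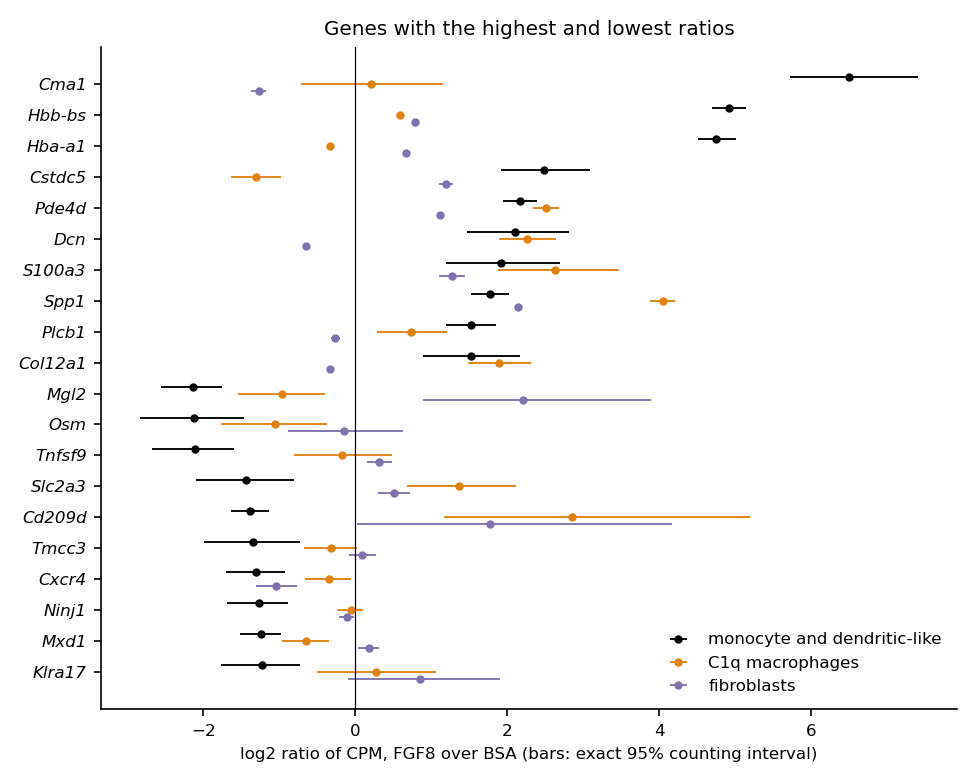
Log2 ratio of CPM, FGF8 over BSA (horizontal axis), for the 10 highest and 10 lowest genes (vertical axis) in the selected cells, C1q macrophages and fibroblasts, with exact 95% counting intervals. *Pde4d* lies above 1 in all 3 cell groups, at 2.17, 2.51 and 1.12, whereas *Mxd1* lies at -1.24, -0.65 and 0.18.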

How the data were processed

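Single-cell 3′ libraries (10x Genomics), 1 per treatment, were analysed. The authors deposited raw UMI counts per gene and barcode, which Cell Ranger 9.0.0 made (per the submitters' processing notes, which name GRCm39 and mm10). No further normalization was applied to these counts before deposit. The cells and gene lists were chosen with earlier results of these data known. UMIs were summed over cells, scaled to CPM and compared as log2 ratios for genes with at least 50 UMIs. Where 1 library had no UMI of a gene, 3 counts stood in for it. Intervals were exact binomial, Poisson or conditional. C1q macrophages had at least 3 of the 5 macrophage genes and no *Pdgfra*, fibroblasts a *Pdgfra* UMI and at least 2 of *Col1a1*, *Col1a2* and *Col3a1*. Clusters came from scanpy 1.11.5 (20 components, 15 neighbours, resolution 1.0, seed 42) and were named where 1 marker list led among the 10 leading genes and at least 3 of its markers were in 10% of cells. That naming rule was set after seeing the data. No doublet caller was run. Named genes were drawn from those of the rule, the most abundant and over 2-fold genes of the lists, and the 10 highest and 10 lowest ratios among genes with at least 100 UMIs. Not every list, and not every over 2-fold gene of a list, is described above. The ratios were tested on simulated Poisson counts. These leave out the spread between cells, so they do not bear on genes with most UMIs in few cells. The cell filter, the rule's limits, the UMI minimum, cell weights, depth, sex calls and left-out clusters or cells were varied as alternatives (closing section); those on left-out clusters, 6 other types, globin-rich cells, the *Ptprc* denominator and single richest cells were chosen after seeing the data. Values were computed in Python 3.11.15.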

Additional observations from a re-analysis of the deposited data

Results flagged for a closer look

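For 2 named genes the ratio of FGF8 over BSA went beyond 2-fold in opposite directions in the selected cells and in the C1q macrophages. *Cstdc5*, one of the stefin A genes and a leading gene of the neutrophil-like cluster, had a log2 ratio of 2.48 in the selected cells (184 and 30 UMIs) and -1.31 in macrophages (30.1 and 74.5 CPM), and 1 cell held 29.3% of its FGF8 UMIs and another 33.3% of its BSA UMIs. *Slc2a3*, a glucose transporter, had -1.44 in the selected cells (30 and 74 UMIs) and 1.37 in macrophages (84 and 22 UMIs). Stefin A genes are near-identical copies, which makes the counts of any 1 of them uncertain. None of these differences was tested.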

How the results depend on the processing

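Of the main values recomputed under the alternatives, 88 moved by less than the limits set for them and 37 moved further. No paired analysis was possible because each treatment is 1 library and no result comes from a test. The selected share, 2.52% in FGF8 and 4.12% in BSA, was 3.27 and 5.01 with a stricter cell filter, 3.99 and 5.81 with 2 genes required, 1.85 and 2.80 with 4, 1.41 and 2.49 with no macrophage gene allowed, 0.0596 and 0.707 without cells holding 3 or more genes of any of 7 other types, 1.56 and 2.80 with the fibroblast list dropped from these, and 11.0 and 18.7 of *Ptprc* barcodes, with FGF8 the lower each time. Genes above 1, 126 in all cells, were 18 and 73 without those other-type cells (7 and 6 types), 83 (female) and 250 (male) by sex call, 200 with cells weighted equally, 26 thinned to 2000 UMIs, and 411 and 53 with minimums of 20 and 100 UMIs. Genes below -1, 100 in all, were 52 thinned and 286 and 46 with those minimums. The share of calls that lay above 1, 55.8%, was 36.2% (female), 72.5% (male), 33.3% in thinned cells, and 41.2% and 15.8% without the cells of 6 and 7 other types. Each list median here covers the genes with 50 UMIs in the cells of that setting, so the values by sex call differ from those of the report, which keep the genes tested in all cells. On that second set the male-called medians were 0.12 for cDC1 genes and -1.15 for T, NK and innate lymphoid genes. The interferon median, -0.30, was -0.21 with 4 genes required, -1.24 without the cells of 7 types, -0.07 in male-called cells, -0.12 without the interferon-led cluster and -0.61 thinned. The AP-1 median, -0.54, was -1.98 without the cells of 7 types and -0.28 in male-called cells. The MHC class II median, -0.11, was 0.17 with no macrophage gene allowed, -0.24 for the female and 0.19 for the male call, so its sign depended on the setting. The fibroblast median, 1.09, was 0.39 without the cells of 6 types and 2.34 in male-called cells. The sign turned for cDC1 genes (-2.16 without 7 types, -0.16 in male-called cells), for T, NK and innate lymphoid genes (0.09 with 4 genes required, 0.39 in male-called cells, 0.07 without the neutrophil-like and lymphoid-like clusters) and for S phase genes (0.12 without the 5% deepest cells). The 7-type setting leaves 4 FGF8 and 23 BSA cells, and the male-called one 18 BSA cells. The cause of the other moves was not tested.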
